A study of Mus musculus with 24 samples.

Results

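Mediator is the protein complex that joins transcription factors on enhancers and promoters to RNA polymerase II. Its 33 genes studied here, out of 54146 genes in the count tables, were taken by name from the list of Mediator subunits and of the proteins of its kinase module, and each symbol matched 1 Ensembl identifier. They were grouped by their place in the complex into 7 genes of the kinase module, 7 of the head, 9 of the middle, 5 of the tail, 4 that lie between head and tail, and the scaffold subunit Med14. The head and middle contact the polymerase, many tail subunits are bound by transcription factors, and Med14 runs through the complex and holds it together. The kinase module docks reversibly on this core and consists of a cyclin-dependent kinase, either CDK8 or its paralog CDK19, with cyclin C (Ccnc), MED12 or MED12L, and MED13 or MED13L, the subunits that attach the module to the core.

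RNA was sequenced from organoids of the mouse small intestine in 2 experiments. Each had 12 libraries, 3 for each of its 4 groups. In the first, WT, Cdk8-/-, Cdk19-/- and double knockout (Cdk8-/- and Cdk19-/-) organoids were compared after 7 days in 600 nM 4-hydroxytamoxifen, which all 4 genotypes received. In the second, WT organoids were treated with DMSO or with Senexin B, an inhibitor of the CDK8 and CDK19 kinases, for 16 h or 24 h. The labels name no genotype for these and repeat the tamoxifen text, while the study describes them as WT. According to the study's methods, Cdk8 was removed in Cdk8 lox/lox organoids by CreERT2 under the Villin promoter, which is active in intestinal epithelium, and Cdk19 was mutated with a lentiviral Cas9 vector, after which organoids were selected and picked as clones for expansion. The labels call the replicates biological but do not tie them to separate animals, so that p-values measure the spread between these samples. The age of the animals is not given in the sources used here.

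The genotype libraries hold 41879958 to 42068649 reads, of which 14636861 to 15473180 were counted on genes in the column used, and the Senexin B libraries hold 36042777 to 36255610 reads, with 27075937 to 28405118 counted. In the genotype libraries 49.6 to 49.7% of the strand-assigned counts fell on the second strand, so these libraries carry no strand information, against 87.9 to 90.5% in the Senexin B libraries. The labels name the breast tumour line 4T1 as the cell type of the genotype samples. All 8 intestinal epithelial markers examined were measured in them, with sums of 91791 to 125720 normalised counts per library, whereas 7 mammary markers summed to at most 32.6 and Csn2 was at 0. Fibroblast markers summed to at most 10.1 there and to at most 84.3 in the Senexin B libraries. Of the 33 Mediator genes, 32 passed the filter on low counts in both experiments and were tested. Med12l did not pass.

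The alleles are shown by the coding bases they affect. Cdk8, on chromosome 5 (GRCm38, 146231230 to 146302874, plus strand), loses exon 2 of 13, at chr5:146259505-146259580. This exon holds 76 bases, positions 129 to 204 of the 1392 coding bases of the principal transcript, which leaves a remainder of 1 after division by 3, so that its loss shifts the reading frame. The capitals mark codon 52, which encodes the catalytic lysine.
Cdk8 exon 2: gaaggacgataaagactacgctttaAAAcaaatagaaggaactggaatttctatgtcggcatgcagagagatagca
Cdk19, on chromosome 10 (40339564 to 40483818, plus strand), was targeted by a guide to exon 1, whose coding part lies at chr10:40349594-40349721 and holds the first 128 of 1503 coding bases of the principal transcript. The capitals mark the start codon.
Cdk19 exon 1, coding part: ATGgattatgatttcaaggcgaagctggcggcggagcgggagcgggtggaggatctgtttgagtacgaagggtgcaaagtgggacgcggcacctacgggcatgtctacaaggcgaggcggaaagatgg
Both stretches are small against the counted gene. Exon 2 makes up 0.773% of the exonic length of Cdk8, and the coding part of exon 1 makes up 2.19% of that of Cdk19. A count over the whole gene therefore does not measure either lesion. No stretch of 50 bases, the read length, was shared between Cdk8 and Cdk19, between Med12 and Med12l or between Med13 and Med13l, so reads could be assigned within each pair. Of the 9934 stretches of this length in the transcripts of Cdk8, 527 also lie in transcripts of 7 other genes, so some of its reads are uncertain. The same holds for 3.47% of the stretches of Med16, 2.27% of those of Med25 and 0.975% of those of Med18, which are shared with 936, 864 and 42 other genes.

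The targeted genes were examined first. Counts are given on the scale of the mean library of each experiment after TMM normalisation, and the 2 experiments were normalised separately. Cdk8 was at 635, 646 and 534 normalised counts in the WT libraries, at 685, 857 and 634 in those labelled Cdk8-/-, at 694, 694 and 726 in Cdk19-/- and at 707, 659 and 645 in double knockout. The Cdk8-/- range overlapped that of WT, and the log2 fold change was 0.26 (SE 0.11, edgeR adjusted p = 0.211). The mean count of Cdk8 was thus not lower in the libraries labelled as lacking its exon 2. The study reports the loss of this exon by genotyping and of the CDK8 protein by western blot, which whole-gene counts do not measure. It also reports the loss of Cdk19 RNA by qPCR and of its protein. After longer culture CDK8 protein was seen again in some of its double knockout populations. In Cdk19-/- all 3 values lay above WT (log2 fold change 0.22, SE 0.11, adjusted p = 0.530), and in double knockout they overlapped WT (0.15, SE 0.11, adjusted p = 0.404).

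Cdk19 was at 711, 749 and 726 normalised counts in WT and at 702, 646 and 582 in Cdk8-/-. In Cdk19-/- it was at 729, 420 and 422, and in double knockout at 403, 355 and 773. In 4 of the 6 libraries labelled as Cdk19 mutants the count lay below every WT library, while the library labelled Cdk19-/- replicate 1 lay within the WT range and that labelled double knockout replicate 3 above it. With this spread the log2 fold change was -0.48 in Cdk19-/- (SE 0.27, adjusted p = 0.576) and -0.51 in double knockout (SE 0.27, adjusted p = 0.211). The Cdk8-/- values of Cdk19 lay just below the WT range (-0.18, SE 0.27, adjusted p = 0.750). Directions that rest on these 2 libraries are drawn from their labels, and counts of members without both are given beside the results.

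**Figure D1:**
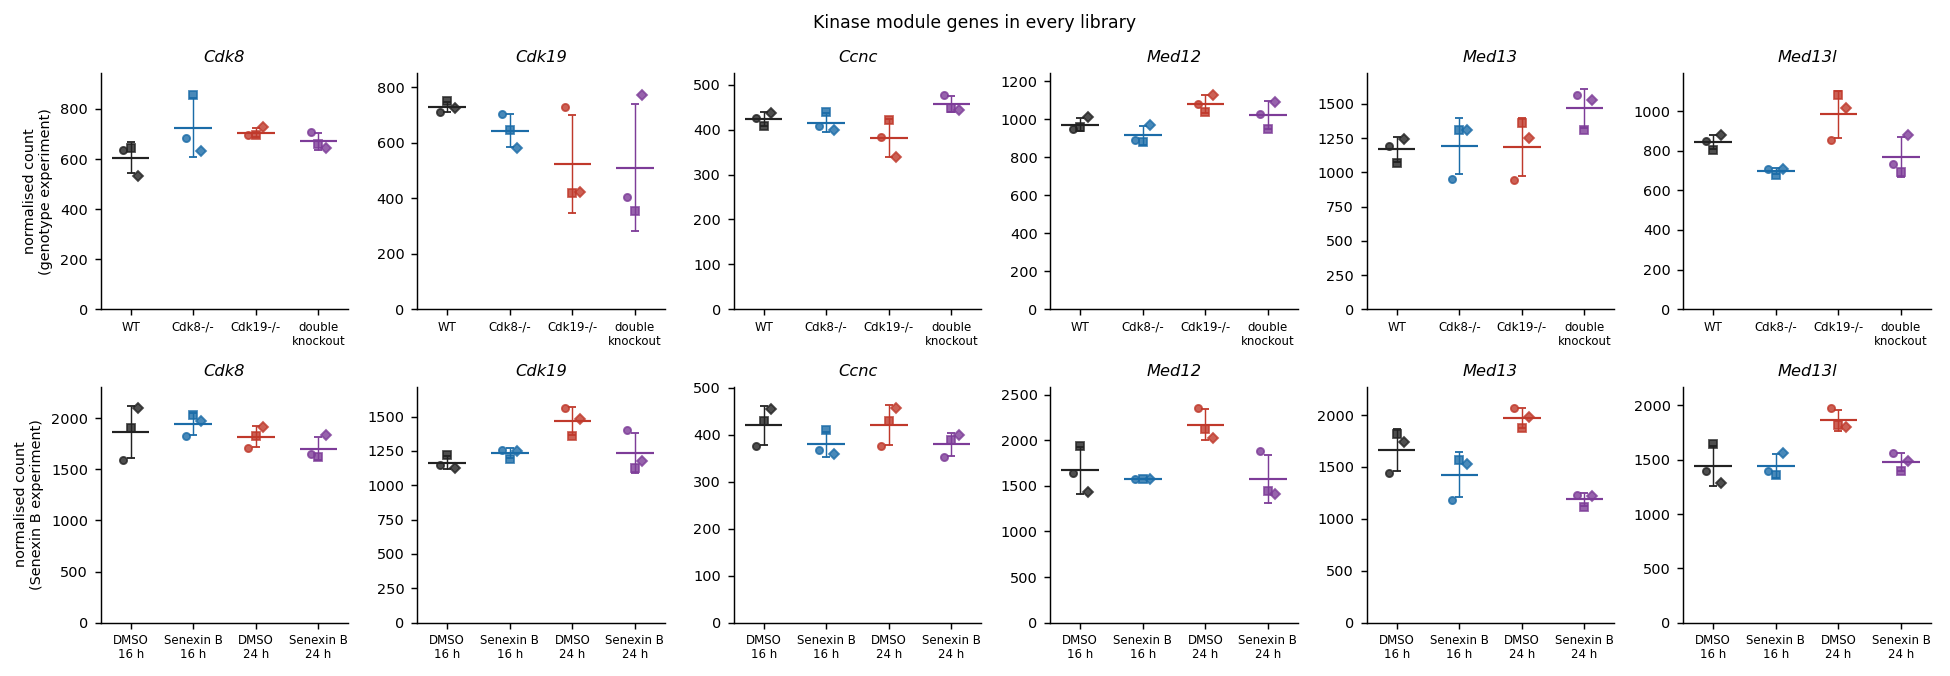
Normalised counts of 6 kinase module genes in every library, by genotype (upper row) and by treatment (lower row). Symbols mark replicate 1 (circle), 2 (square) and 3 (diamond), the horizontal line and bar give the mean and SD of 3 libraries. Cdk19 lies between 355 and 422 in 4 libraries labelled as mutants and at 729 and 773 in the other 2, and Med13 lies between 1117 and 1228 after 24 h of Senexin B, below all DMSO libraries.

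To compare levels between genes, normalised counts were divided by the length of the principal transcript and given per kilobase and per 1000000 counts. In WT organoids Med25, a tail subunit bound by activators, had the highest level at 47.4 ± 2.02 (SD, n = 3), followed by the head subunit Med22 at 41.4 ± 2.81. Next came Med21, of the middle, at 33.6 ± 1.58, whose library range overlapped that of Med8, of the head. The lowest of the tested members were Med18 at 5.66 ± 0.289, Med29 at 5.73 ± 0.697 and Med13l at 6.07 ± 0.260. The ranges of 20 of 32 neighbours in this order overlapped. In organoids treated with DMSO for 16 h the order was led by Med22 at 50.7 ± 2.89 and Med8 at 41.1 ± 2.75, Med18 was again the lowest tested member at 4.48 ± 0.278, and 27 of 32 neighbours overlapped.

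The order depends on the length used, since several members have long exons outside the principal transcript. With the union of all exons, Med19 led in WT at 27.4 and Med25 was at 22.9. Cdk8 stood above Cdk19 per length of the principal transcript (13.6 ± 1.38 against 8.38 ± 0.219 in WT) but below it with the union of exons (4.11 against 8.33). The kinase module genes Med12 (9.53 ± 0.329), Ccnc (8.43 ± 0.309), Med13 (7.40 ± 0.574) and Med13l were in the lower part of the order in WT per length of the principal transcript.

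**Figure D2:**
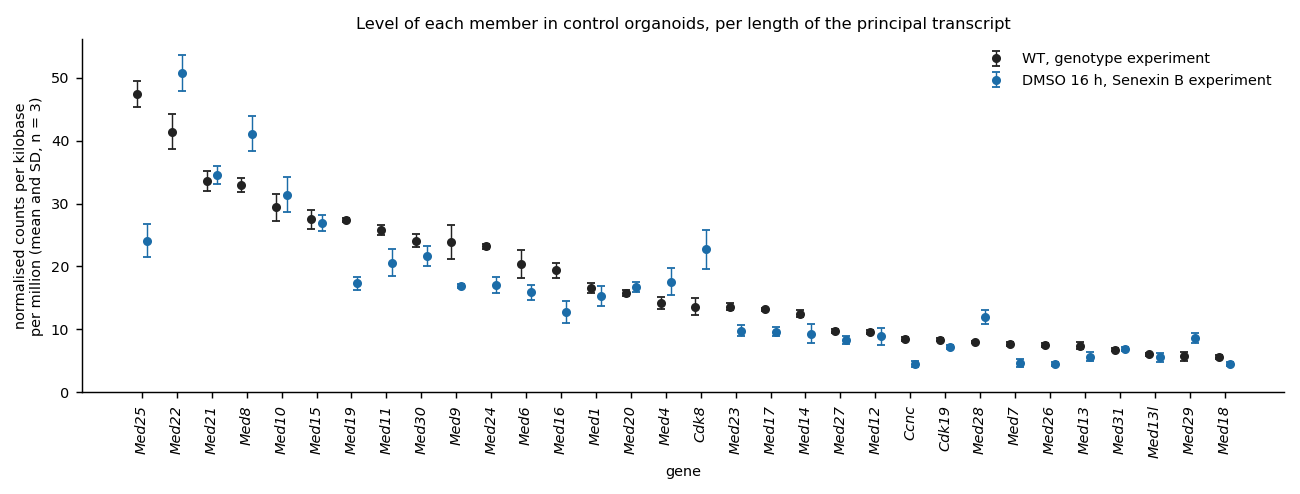
Level of 32 members in WT organoids (black) and in organoids treated with DMSO for 16 h (blue), as normalised counts per kilobase of the principal transcript and per 1000000 counts, with the mean and SD of 3 libraries. Members are ordered by their WT level, from Med25 at 47.4 to Med18 at 5.66. The experiments were normalised separately, so the colours compare orders and not levels.

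The paralogs of the kinase module were compared within each library. Med12l, the paralog of Med12, was near absent, with 0 to 7.14 normalised counts in the genotype libraries and 0 to 6.09 in the Senexin B libraries, while Med12 was at 881 to 1129 and at 1409 to 2356. Per principal transcript length, Cdk19 made up 36.5, 37.2 and 41.0% of Cdk8 and Cdk19 together in WT, and 27.8 to 34.4% in Cdk8-/-. It made up 35.0, 23.7 and 23.0% in Cdk19-/- and 22.6, 21.6 and 38.0% in double knockout. The 2 libraries with high Cdk19 counts thus held shares within or near the WT range. With the union of exons the WT shares were 65.3, 66.1 and 69.5%.

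Med13l made up 44.8, 46.1 and 44.4% of Med13 and Med13l together in WT and 34.7, 37.5 and 39.5% in double knockout, per principal transcript length, and these ranges did not overlap. In Cdk19-/- it made up 50.5, 47.5 and 47.9%, all above WT and thus on the other side from double knockout, and in Cdk8-/- 45.7, 37.0 and 38.0%, which overlapped WT. It made up 50.8 to 52.3% after 24 h of DMSO and 59.1, 58.7 and 58.0% after 24 h of Senexin B, again without overlap. At 16 h the DMSO range of 45.6 to 52.4% overlapped the Senexin B range of 49.5 to 57.4%. No test was made of these shares.

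Each single mutant was compared with WT to see whether the rest of the complex changed. The study does not describe Cre, a lentiviral vector or cloning for WT organoids, so these cannot be told apart from the mutated gene. In Cdk8-/- organoids edgeR called 0 of 32 members at an adjusted p under 0.05, beside 5.15% of all genes tested. There were 5 members at an unadjusted p under 0.05, beside 3341 of 15602 genes. The Wald test of DESeq2 called 1, the tail subunit Med25, beside 1294 genes. Med16, a tail subunit, was at 851, 805 and 912 normalised counts in WT and at 757, 648 and 717 in Cdk8-/-, ranges that did not overlap (log2 fold change -0.28, SE 0.09, adjusted p = 0.108). Med13l was at 850, 805 and 877 in WT and at 706, 679 and 707 in Cdk8-/- (log2 fold change -0.28, SE 0.11, adjusted p = 0.168), also without overlap. Both were called with length and GC offsets by edgeR, at adjusted p = 0.0481 for Med16 and 0.0464 for Med13l, beside 998 genes. Med21 was higher without overlap, at 318 to 351 against 278 to 303 in WT (log2 fold change 0.22, SE 0.10, adjusted p = 0.215). Med7, Med17, Med24 and Med28 were also higher without overlap, and Med18, Med25 and Cdk19 lower, which was not counted over all genes. The median log2 fold change was 0.01 over the members and 0.01 over all genes. Of 7 crypt and lineage markers Lyz1 (2.01) and Muc2 (0.98) were called higher and Lgr5 (-0.86) lower in Cdk8-/-, and their sums were 70141 to 88608 normalised counts against 53526 to 53757 in WT. Mammary markers summed to 10.2 to 32.6 against 2.09 to 5.03. Their part in these values was not tested.

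In Cdk19-/- organoids 0 of 32 members were called, as were 0% of all genes tested with edgeR, 0 members had an unadjusted p under 0.05 and DESeq2 called 0. Over all genes 1691 had an unadjusted p under 0.05 and DESeq2 called 309. The member with the highest log2 fold change was Med13l, at 852, 1083 and 1018 normalised counts against 850, 805 and 877 in WT (0.22, SE 0.11, adjusted p = 0.488). Without the 2 libraries with Cdk19 at the WT level, 1 member other than Cdk19 was called, Med13l, beside 666 of all 15821 genes tested in that fit. Without Cdk19-/- replicate 1 alone, 521 of 15932 genes were called. Cyclin C was at 427, 408 and 438 normalised counts in WT, at 409, 440 and 399 in Cdk8-/-, at 383, 422 and 339 in Cdk19-/- and at 478, 449 and 444 in double knockout. The double knockout range of Ccnc lay above that of WT, with a log2 fold change of 0.11 (SE 0.10, adjusted p = 0.473). The study reports that the cyclin C protein was lost in double knockout, which RNA counts do not measure.

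In double knockout organoids 3 of 32 members were called, beside 17.3% of all genes, and all 3 were lower than in WT, beside 7.90% of all genes called lower. They were the head subunit Med18 and the tail subunits Med16 and Med25. In these bulk samples a smaller number of cells of a type and less RNA per cell cannot be told apart. Med18, which takes part in the contact of the head with the polymerase, was at 135, 142 and 149 normalised counts in WT and at 85.7, 103 and 90.3 in double knockout. The ranges did not overlap, and Med18 fell by 0.61 on the log2 scale (SE 0.14, adjusted p = 0.0107). The single mutants lay between, with 118, 108 and 128 in Cdk8-/- and 116, 127 and 130 in Cdk19-/-.

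Med16 was at 624, 596 and 596 normalised counts in double knockout, below all WT libraries, and fell by 0.50 (SE 0.09, adjusted p = 0.00406). In Cdk19-/- it was at 869, 733 and 769, which overlapped WT. Med16 lies on chromosome 10 (79894708 to 79908923, minus strand), Med18 on chromosome 4 (132458731 to 132463921, minus strand) and Med25 on chromosome 7 (44876765 to 44892712, minus strand). Med25 was at 2677, 2686 and 2489 in WT, at 2380, 2212 and 2138 in Cdk8-/-, at 2641, 2545 and 2423 in Cdk19-/- and at 2104, 2025 and 1936 in double knockout. It fell by 0.37 in double knockout (SE 0.07, adjusted p = 0.00633), again without overlap. The same 3 genes were called without the 2 libraries with Cdk19 at the WT level and under every other setting tried. No gene of the opposite strand overlaps the exons of these 3 genes.

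**Figure D3:**
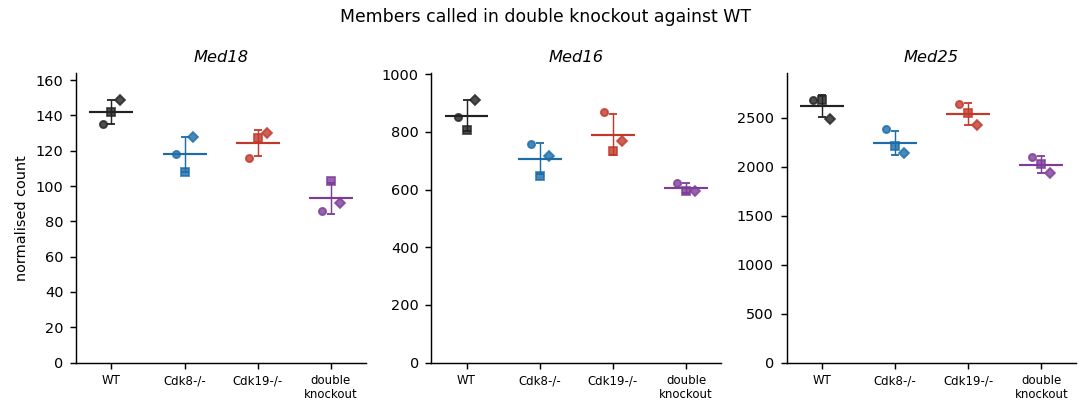
Normalised counts of Med18, Med16 and Med25 in the 12 genotype libraries, with the mean and SD of 3 libraries per genotype and symbols for replicates 1 (circle), 2 (square) and 3 (diamond). The double knockout libraries of Med18 lie between 85.7 and 103, those of Med16 between 596 and 624 and those of Med25 between 1936 and 2104, all below WT.

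None of the 6 tested kinase module genes was called in double knockout in the model of all 12 libraries, and Med13 was called when the WT and double knockout libraries were fitted alone. Cdk19 was called without double knockout replicate 3, the library with its count above the WT range. That library stands out by Cdk19 itself, so the call is given as a value only. Med13 was at 1189, 1068 and 1245 normalised counts in WT, at 953, 1310 and 1307 in Cdk8-/-, at 947, 1358 and 1254 in Cdk19-/- and at 1567, 1307 and 1526 in double knockout. The double knockout range lay above WT, with a log2 fold change of 0.33 (SE 0.15, adjusted p = 0.152). Med12 was at 946, 958 and 1009 in WT, at 890, 881 and 972 in Cdk8-/-, at 1078, 1037 and 1129 in Cdk19-/- and at 1027, 948 and 1093 in double knockout (log2 fold change against WT 0.07, SE 0.08, adjusted p = 0.558). Med13l was at 735, 691 and 880 in double knockout (log2 fold change -0.13, SE 0.11, adjusted p = 0.422). The scaffold gene Med14 was at 1304, 1252 and 1365 in WT and at 1282, 1153 and 1037 in double knockout, with overlap (log2 fold change -0.18, SE 0.12, adjusted p = 0.319).

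The other members spread around 0 on the log2 scale in double knockout against WT. In the head, Med6 (-0.11), Med11 (-0.16), Med17 (-0.07), Med20 (0.03) and Med22 (-0.12) did not pass the test. In the middle, Med9 was at -0.29 and Med26, which also binds elongation factors, at -0.25, while Med21 was at 0.23, Med7 at 0.17, Med4 at -0.19, Med19 at 0.11 and Med31 at -0.12. Of the tail, Med15 was at 0.08 and Med24 at -0.00, and between head and tail Med27 (0.29), Med28 (0.04), Med29 (-0.26) and Med30 (-0.13) did not pass. Of the members called after Senexin B, which are described later, Med1 (-0.11), Med8 (0.04), Med10 (0.05) and Med23 (-0.10) did not pass here. The lowest adjusted p among the uncalled genes outside the kinase module was 0.0787, for Med9. The median over the 32 members was -0.11, against -0.01 over all genes, and lay between -0.12 and -0.05 under the alternatives.

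Of the core subunits called after 24 h of Senexin B, Med16 was called in double knockout, while Med14, Med1, Med23, Med8 and Med10 were not called against WT in any genotype. Med14 was at 1427, 1570 and 1174 normalised counts in Cdk8-/- and at 1195, 1368 and 1405 in Cdk19-/-. Med1 was at 1405, 1415 and 1523 in WT, at 1288, 1413 and 1326 in Cdk8-/-, at 1394, 1572 and 1598 in Cdk19-/- and at 1426, 1271 and 1330 in double knockout. Med23 was at 969, 945 and 1021 in WT, at 951, 948 and 994 in Cdk8-/-, at 958, 1044 and 1017 in Cdk19-/- and at 901, 919 and 915 in double knockout. Of these 3 genes Med23 alone had all double knockout libraries below WT (log2 fold change -0.10, SE 0.07, adjusted p = 0.344). Med8 was at 546, 584 and 567 in WT, at 567, 700 and 523 in Cdk8-/-, at 518, 489 and 454 in Cdk19-/- and at 624, 602 and 522 in double knockout. Med10 was at 372, 402 and 430 in WT, at 438, 429 and 407 in Cdk8-/-, at 382, 368 and 333 in Cdk19-/- and at 385, 431 and 431 in double knockout. Med8 was lower in all Cdk19-/- libraries than in WT (log2 fold change -0.22, SE 0.11, adjusted p = 0.538), and its other ranges overlapped WT.

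Cell type markers moved with the genotype as well. Of 8 epithelial markers Krt20 and Vil1 were called higher and Cdx2 lower in double knockout. Of 7 crypt and lineage markers, Lyz1 and Muc2 were called higher and Lgr5 and Dclk1 lower, and the leukocyte markers summed to 28.6 to 41.8 normalised counts against 3.13 to 20.1 in WT. Of 7 mammary markers 1 was tested, Csn3, which was called higher (log2 fold change 3.76, adjusted p = 0.0496), and the mammary sums were 8.16 to 28.2 against 2.09 to 5.03 in WT. Their part in the Mediator results was not tested.

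Double knockout was next compared with each mutant alone. Against Cdk8-/-, 0 of 32 members were called by edgeR, beside 0.0256% of all genes. At an unadjusted p under 0.05 there were 3 members, beside 2417 of 15602 genes, and DESeq2 called 0. Over all genes DESeq2 called 407, and edgeR called 358 without a filter and 839 without Cdk8-/- replicate 3, again with 0 members. Without the 2 libraries with Cdk19 at the WT level 0 members and 22 genes were called. Med18 was lower in double knockout than in every Cdk8-/- library, without passing the test (log2 fold change -0.34, SE 0.14, adjusted p = 0.263). Against Cdk19-/-, 5 members were called, beside 25.3% of all genes, and all 5 were lower, beside 11.0% of all genes called lower. DESeq2 called 4, beside 4384 genes, and not Med18 (adjusted p = 0.0571). The 5 were Med18 (-0.42, SE 0.14), Med16 (-0.38, SE 0.09), Med13l (-0.36, SE 0.11), Med25 (-0.33, SE 0.07) and Med22 (-0.29, SE 0.09). When these genotypes were fitted alone, Med18, Med13l and Med22 were not called (adjusted p = 0.0998, 0.0931 and 0.0664), and without a filter Med18 and Med22 were not. Med22 was at 683, 715 and 639 normalised counts in Cdk19-/- and at 510, 585 and 570 in double knockout, and its WT libraries at 578, 650 and 580 overlapped both. Med13l overlapped between these genotypes and the other 4 did not, which was not counted over all genes. Of the 5 genes, 2 (Med16 and Med25) were called without double knockout replicate 1, and the same 2 without Cdk19-/- replicate 2. In the latter fit Ccnc, which was not called in the full set, was called too. Without the 2 libraries with Cdk19 at the WT level 4 were called, Med16, Med25 and Med13l together with Med27, beside 4504 of 15821 genes. Cell type markers moved here too. Krt20 (3.21), Krt8 (0.61), Vil1 (0.59), Muc2 (2.07), Lyz1 (2.28) and Alpi (1.33) were called higher on the log2 scale in double knockout than in Cdk19-/-, as were the leukocyte markers Ptprc (3.31) and Itgam (2.44) and the mammary marker Csn3 (4.59), and Lgr5 (-1.73), Olfm4 (-1.18) and Cdx2 (-0.29) were called lower. Leukocyte markers summed to 28.6 to 41.8 in double knockout against 2.92 to 7.90 in Cdk19-/-, and mammary markers to 8.16 to 28.2 against 0.987 to 3.02. Their part in the result was not tested.

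The interaction asks whether the effect of Cdk8 loss differed with Cdk19 mutated. It was called in 0 of 32 members, beside 0.0256% of all genes, and DESeq2 called 0. At an unadjusted p under 0.05 there was 1 member, beside 2269 of 15602 genes. Over all genes DESeq2 called 490, and edgeR called 566 without a filter, 467 without Cdk19-/- replicate 1 and 728 without both libraries with Cdk19 at the WT level, with 0 members in each. The count over all genes also rose without Cdk8-/- replicate 3 (234 higher and 158 lower), without double knockout replicate 2 (71) and without its replicate 3 (42), again with 0 members. That member was Med22 (-0.35, SE 0.13, adjusted p = 0.239). The 3 contrasts against WT share the WT libraries, so they are not independent of each other.

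The promoters of the 3 members that fell in double knockout are described because these were the members called in that comparison. RefSeq windows of 250 bases before to 50 bases after a start were found for 28 of the 33 members, in 32 windows. NRF1 is a transcription factor of housekeeping genes, and its motif, GCGCA followed by any base and GCGC, was searched on both strands. It was in 4 of the 32 windows (12.5%), those of Med11, Med18, Med25 and Med26, against 4.60% of all 32851 windows. The bases before the start of Med18 and Med25 are printed in the direction of transcription, with this motif in capitals, which in Med18 matched on the opposite strand (GRCm38.p6, both genes on the minus strand).
Med18, chr4:132463922-132464171: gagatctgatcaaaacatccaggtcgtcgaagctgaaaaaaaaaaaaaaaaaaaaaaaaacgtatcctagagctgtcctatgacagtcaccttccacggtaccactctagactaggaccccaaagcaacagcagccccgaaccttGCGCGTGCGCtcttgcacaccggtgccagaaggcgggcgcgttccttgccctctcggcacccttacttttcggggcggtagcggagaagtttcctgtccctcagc
Med25, chr7:44892425-44892674: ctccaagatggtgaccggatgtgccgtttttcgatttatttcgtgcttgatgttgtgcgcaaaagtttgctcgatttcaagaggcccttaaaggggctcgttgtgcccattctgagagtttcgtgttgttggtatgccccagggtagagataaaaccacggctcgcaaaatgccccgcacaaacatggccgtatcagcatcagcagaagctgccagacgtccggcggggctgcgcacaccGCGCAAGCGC
The Med16 window held no match of this motif. The ETS motif CCGGAAGT was in 4 of the 32 windows, from Med15, Med17 and Med18, against 3.89% of all windows. The GC box GGGCGG, which can overlap other GC-rich motifs, was in 20 of the 32 (62.5%) against 35.7% of all. The other motifs searched were in 9.38% of member windows against 13.6% of all for TATAAA, in 18.8% against 16.1% for CCAATC, in 3.12% against 1.79% for the CRE motif TGACGTCA, and in 0 of 32 against 0.852% for the YY1 motif, AAGATG followed by GCGG. A match of letters is a description of the window and not a measured site.

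Senexin B was compared with DMSO at the same time to see how inhibition of the kinases, with both genes intact, was followed by changes of the complex. At 16 h edgeR called 0 of 32 members, beside 7.75% of all genes, and DESeq2 called 0, beside 1508 genes. At an unadjusted p under 0.05 there were 3 members, beside 3482 of 15467 genes. The 3 were Med16 (log2 fold change -0.27, SE 0.09, adjusted p = 0.0758), Med22 (-0.21, SE 0.07, adjusted p = 0.0773) and Med17 (-0.19, SE 0.07, adjusted p = 0.137). A replicate block was also fitted, although the labels do not match libraries by number and the correlations of same-numbered and other pairs overlapped. With it edgeR called 2, Med16 at adjusted p = 0.0364 and Med22 at adjusted p = 0.0485, beside 14.8% of all genes in the same fit. Med16 was at 1191, 1025 and 912 normalised counts with DMSO and at 915, 854 and 826 with Senexin B, which overlapped. Med22 was at 1456, 1327 and 1317 with DMSO and at 1242, 1139 and 1167 with Senexin B, which did not. Of the epithelial markers Krt18 (0.54) and Krt8 (0.37) were called higher at 16 h, with sums of 247064 to 275555 normalised counts against 207042 to 242755 with DMSO, and of the crypt and lineage markers Chga (0.52) was called higher and Lgr5 (-0.47) lower. Their part in the result was not tested.

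At 24 h 10 of 32 members were called, beside 27.5% of all genes. Of these, 8 were lower (beside 12.7% of all genes called lower) and 2 higher (beside 14.8%). The kinase module held 4 of the 8, Med13, Med12, Med13l and Cdk19, and the others were the scaffold Med14, Med1 of the middle, and Med16 and Med23 of the tail. Those that rose were Med8 of the head and Med10 of the middle. The median log2 fold change was -0.29 over the 6 tested kinase module genes, -0.01 over the 32 members and 0.00 over all genes. With length and GC offsets the median of the 6 was -0.19.

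Med13, which links the kinase module to the core, had the lowest log2 fold change among the members. It was at 2068, 1876 and 1984 normalised counts with DMSO and at 1228, 1117 and 1222 with Senexin B at 24 h, without overlap, and fell by 0.73 on the log2 scale (SE 0.11, adjusted p = 0.000327). At 16 h it was at 1438, 1817 and 1741 with DMSO and at 1177, 1570 and 1525 with Senexin B, which overlapped (log2 fold change -0.23, SE 0.11, adjusted p = 0.230). Senexin B was below DMSO in each of the 3 same-numbered pairs, and the adjusted p was 0.120 with the replicate block and 0.0386 with the block and length and GC offsets. Its paralog Med13l was at 1977, 1816 and 1803 with DMSO and at 1562, 1397 and 1490 with Senexin B at 24 h, without overlap, and fell by 0.33 (SE 0.09, adjusted p = 0.0144). At 16 h the groups overlapped, with 1394, 1643 and 1287 against 1396, 1358 and 1565.

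Med12, the subunit that activates the kinase through cyclin C, was at 2356, 2130 and 2023 normalised counts with DMSO and at 1880, 1446 and 1409 with Senexin B at 24 h. The groups did not overlap and Med12 fell by 0.46 (SE 0.12, adjusted p = 0.0103). At 16 h it was at 1640, 1944 and 1435 against 1581, 1577 and 1574, with overlap. Cdk19 was at 1562, 1360 and 1484 with DMSO and at 1401, 1127 and 1174 with Senexin B at 24 h, with overlap, and fell by 0.25 (SE 0.08, adjusted p = 0.0375). At 16 h Cdk19 was at 1146, 1218 and 1126 against 1256, 1189 and 1249.

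Cdk8 and Ccnc were not called. Cdk8 was at 1714, 1826 and 1919 normalised counts with DMSO and at 1654, 1621 and 1833 with Senexin B at 24 h (log2 fold change -0.10, SE 0.09, adjusted p = 0.474). At 16 h it was at 1595, 1902 and 2102 against 1824, 2035 and 1979. Ccnc was at 375, 430 and 457 with DMSO and at 352, 389 and 399 with Senexin B at 24 h (log2 fold change -0.15, SE 0.10, adjusted p = 0.312), and at 375, 430 and 455 against 368, 410 and 360 at 16 h. Both genes overlapped between treatments at both times. Within same-numbered pairs Senexin B was below DMSO in 3 of 3 pairs at 24 h for each gene, and at 16 h in 3 of 3 for Ccnc and 1 of 3 for Cdk8. With the replicate block neither gene was called, at adjusted p = 0.281 for Cdk8 and 0.182 for Ccnc at 24 h and 0.560 and 0.277 at 16 h.

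In the core, Med14 was at 1886, 1785 and 1917 normalised counts with DMSO and at 1364, 1402 and 1454 with Senexin B at 24 h, without overlap, and fell by 0.41 (SE 0.09, adjusted p = 0.00659). Med1, the subunit bound by nuclear receptors, was at 2666, 2674 and 2804 against 2094, 2176 and 2220, and fell by 0.33 (SE 0.07, adjusted p = 0.00517). Med16 was at 1025, 1099 and 1112 against 877, 908 and 884, and fell by 0.28 (SE 0.09, adjusted p = 0.0297). None of these 3 overlapped between treatments at 24 h. At 16 h of Senexin B, Med14 was at 1552, 1514 and 1638 and Med1 at 2260, 2418 and 2392, and both overlapped DMSO. Med23, of the tail, was at 1502, 1485 and 1576 against 1362, 1288 and 1284, without overlap, and fell by 0.21 (SE 0.07, adjusted p = 0.0326). At 16 h it was at 1272, 1237 and 1317 with Senexin B.

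Med8 rose from 1082, 1082 and 1061 normalised counts with DMSO to 1324, 1402 and 1306 with Senexin B at 24 h (log2 fold change 0.32, SE 0.06, adjusted p = 0.00254). Med10 rose from 660, 756 and 711 to 828, 833 and 910 (0.27, SE 0.08, adjusted p = 0.0260). Neither overlapped between treatments. At 16 h Med8 was at 1318, 1369 and 1363 and Med10 at 827, 901 and 823 with Senexin B, which overlapped DMSO at 1213, 1308 and 1388 and at 830, 714 and 839. Gm26819 on the opposite strand overlaps 92.8% of the exonic length of Med10, and 90.2 to 94.9% of the strand-assigned counts of Med10 were on its own strand in these libraries. The genotype libraries do not tell this pair apart.

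Med18 and Med25, which fell in double knockout, were not called at 24 h. Med18 was at 193, 186 and 198 normalised counts with DMSO and at 244, 252 and 215 with Senexin B, without overlap and above DMSO (log2 fold change 0.30, SE 0.11, adjusted p = 0.0585). Med25 was at 2546, 2420 and 2469 against 2558, 2262 and 2550, with overlap (-0.01, SE 0.08, adjusted p = 0.922). Of the 3 genes that fell in double knockout, Med16 alone thus fell after 24 h of Senexin B as well. The 2 experiments were normalised apart and the difference between them was not tested.

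The 18 other members not called at 24 h nor named above with values in every library ranged from -0.09 for Med20 to 0.29 for Med29 on the log2 scale. In the head these were Med6 (0.09), Med11 (-0.05), Med17 (0.04), Med20 and Med22 (-0.08). In the middle Med4, Med19 and Med21 were at 0.17, Med7 at 0.16, Med9 at 0.15, Med26 at 0.06 and Med31 at -0.07. Med15 (-0.01) and Med24 (0.01) of the tail lay near 0, and between head and tail Med27 was at 0.21, Med28 at 0.17 and Med30 at -0.04. With the replicate block 12 members were called, the same 10 with Med18 (0.30, adjusted p = 0.0436) and Med29, beside 36.9% of all genes in the same fit.

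**Figure D4:**
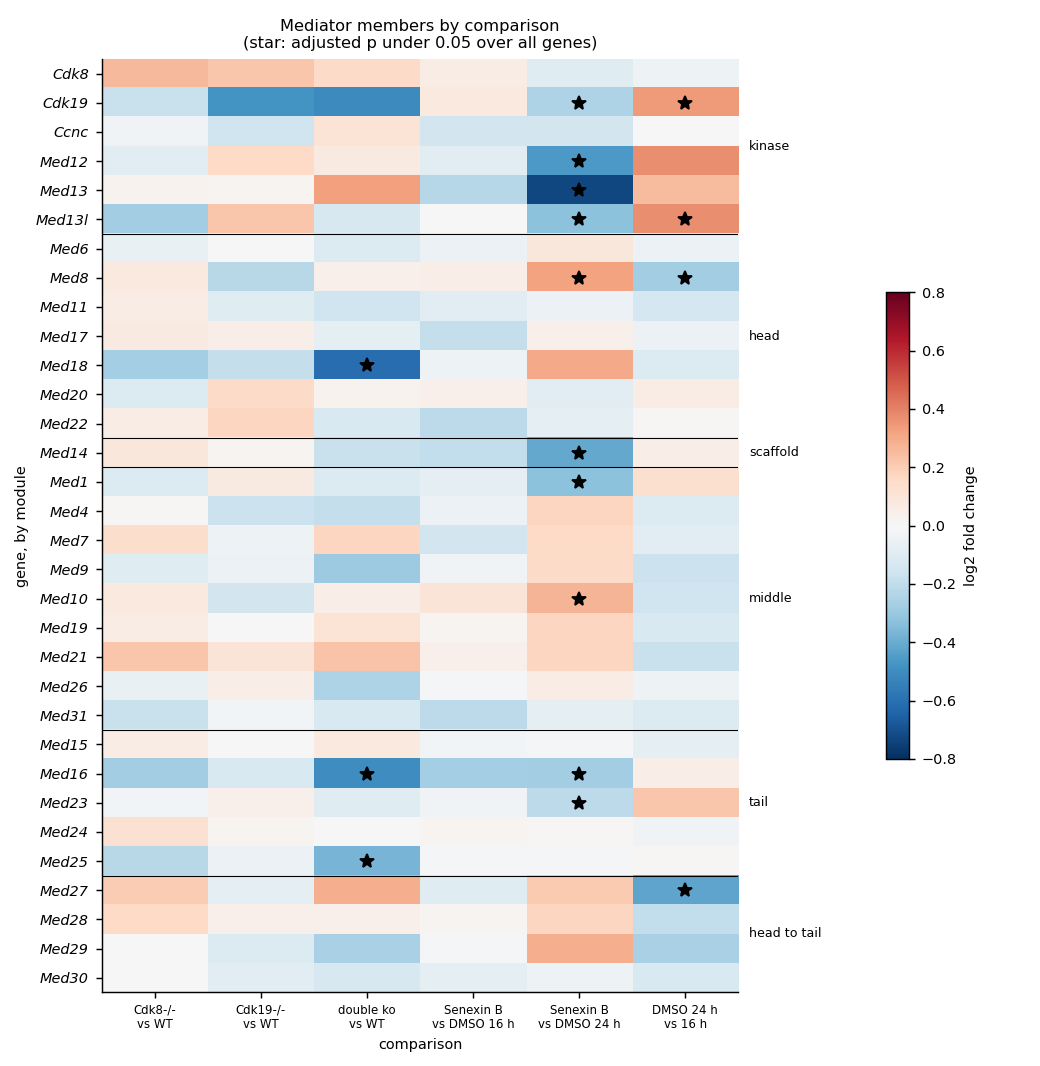
Log2 fold change of the 32 tested members, by module, in 6 comparisons (red higher, blue lower, colour scale in log2). Stars mark members with an adjusted p under 0.05 over all genes, which are 3 in double knockout, 10 after 24 h of Senexin B, 4 between DMSO times and 0 in the other columns.

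The number of members called at 24 h depended on the libraries. Without Senexin B replicate 2 it was 4, without Senexin B replicate 3 it was 5, and without DMSO replicate 1 or 3 it was 6. The number of all genes called fell in the same fits, from 4252 to 2656, 2919, 3014 and 3235. Med13, Med14, Med1 and Med8 were called without each of the 6 libraries in turn. Med12 was not called without Senexin B replicate 2 or 3, Med13l without Senexin B replicate 2 or DMSO replicate 1, and Cdk19 without any of these 3 or DMSO replicate 3. Med10 was lost without each of the same 4 libraries as Cdk19. Med16 was called only with all 6 libraries or without DMSO replicate 1, and Med23 only with all 6 or without Senexin B replicate 1. Of the epithelial markers Krt8, Krt18 and Cdx1 were called higher and Krt20 lower at 24 h. Crypt and lineage markers moved too, Chga and Dclk1 being called higher and Lyz1 and Lgr5 lower of 7, and the fibroblast markers summed to 26.4 to 84.3 normalised counts with Senexin B against 31.4 to 40.9 with DMSO. The sums of other lists did not overlap at 24 h. Endothelial markers summed to 14.2 to 24.4 with Senexin B against 10.5 to 11.6 with DMSO, mammary markers to 17.2 to 20.3 against 9.53 to 14.5 and leukocyte markers to 9.13 to 11.3 against 13.6 to 18.4. Their part in the result was not tested.

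DMSO for 24 h was compared with DMSO for 16 h. At 24 h against 16 h 4 of 32 members were called, beside 11.1% of all genes, of which 2 were higher (beside 4.52% of all genes called higher) and 2 lower (beside 6.59%). Med13l rose by 0.37 on the log2 scale (SE 0.09, adjusted p = 0.0193) and Cdk19 by 0.34 (SE 0.08, adjusted p = 0.0216). With length and GC offsets Med13l was called at 0.24 (adjusted p = 0.0212) and Cdk19 was not called (0.26, adjusted p = 0.0566). Med27 fell by 0.42 (SE 0.12, adjusted p = 0.0358), from 264, 292 and 307 to 198, 231 and 215 normalised counts, and Med8 fell by 0.28 (SE 0.06, adjusted p = 0.0165), from 1213, 1308 and 1388 to the 24 h values given before. These 4 did not overlap between times, which was not counted over all genes. When the DMSO libraries were fitted alone none of the 4 was called, with adjusted p from 0.0630 for Cdk19 to 0.0918 for Med8, and 385 of all genes were called against 1719. Med12 was higher in every 24 h library (0.37, SE 0.12, adjusted p = 0.0518) and was called by DESeq2 (adjusted p = 0.0195), with the block (0.0107) and with the offsets (0.0465). DESeq2 called 6 members, these 4 with Med12 and Med23, beside 2289 genes. The median log2 fold change was 0.29 over the 6 kinase module genes (0.17 with the offsets) and -0.05 over the 32 members, against 0.00 over all genes. No member was called without DMSO 16 h replicate 3 or without DMSO 24 h replicate 1, and 1 was called without DMSO 24 h replicate 3. The number of all genes called fell from 1719 to 434, 522 and 946 in these fits. Of the fibroblast markers Pdgfra was called higher at 24 h (1.44, SE 0.31, adjusted p = 0.0124), and their sums were 31.4 to 40.9 against 15.9 to 30.5 at 16 h. Their part in the result was not tested. The DMSO libraries of 24 h serve in this comparison and in that of Senexin B at 24 h, so that a high or low value in them enters both with opposite sign.

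The Senexin B libraries of 24 h were therefore also set beside the DMSO libraries of both times. Of the 10 members called at 24 h, 9 did not overlap with DMSO at 24 h, and 4 of these, Med13, Med14, Med1 and Med16, were also below every DMSO library of 16 h. Over all genes called at 24 h these shares were 97.8% (4160 of 4252) and 59.1% (2513 of 4252), both above the shares of the members. Med14 was at 1477, 2041 and 1876 and Med1 at 2241, 2756 and 2440 normalised counts after 16 h of DMSO. Med8 and Med10 after 24 h of Senexin B overlapped their 16 h DMSO ranges, and so did Med23, at 1233, 1430 and 1255 after 16 h of DMSO, and Med12, Med13l and Cdk19. The difference between the Senexin B effects at 24 h and 16 h was called in 0 of 32 members, as in 0% of all genes with edgeR, where 1995 genes had an unadjusted p under 0.05, DESeq2 called 66, the replicate block 60, the block with length and GC offsets 284 and the fit without a filter 121, with 0 members in each. There were 8 members at an unadjusted p under 0.05, of which Med13 had the lowest (-0.51, SE 0.15, adjusted p = 0.268), and DESeq2 called 0.

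Gene length moved with both 24 h comparisons. In DMSO at 24 h against 16 h the median log2 fold change was -0.10 over the shortest quintile of all genes and 0.10 over the longest quintile, and with Senexin B against DMSO at 24 h it was 0.11 and -0.11. The 16 tested members with 1046 to 4230 exonic bases had medians of -0.12 and 0.15 in these comparisons, and the other 16 had medians of 0.05 and -0.18. All 8 members that fell at 24 h were among the longer 16, as were all 6 tested kinase module genes. Module and length thus coincided, and their parts were not tested apart. With offsets for length and GC content, 8 of the 10 were called, Med13 at -0.57, Med12 at -0.41, Med16 at -0.32, Med14 at -0.28, Med1 at -0.23, Med13l at -0.19, Med8 at 0.29 and Med10 at 0.26. Cdk19 (-0.19, adjusted p = 0.102) and Med23 (-0.16, adjusted p = 0.0505) were not called with these offsets, and both were called when the replicate block was fitted with them (adjusted p = 0.0206 and 0.0395).

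**Figure D5:**
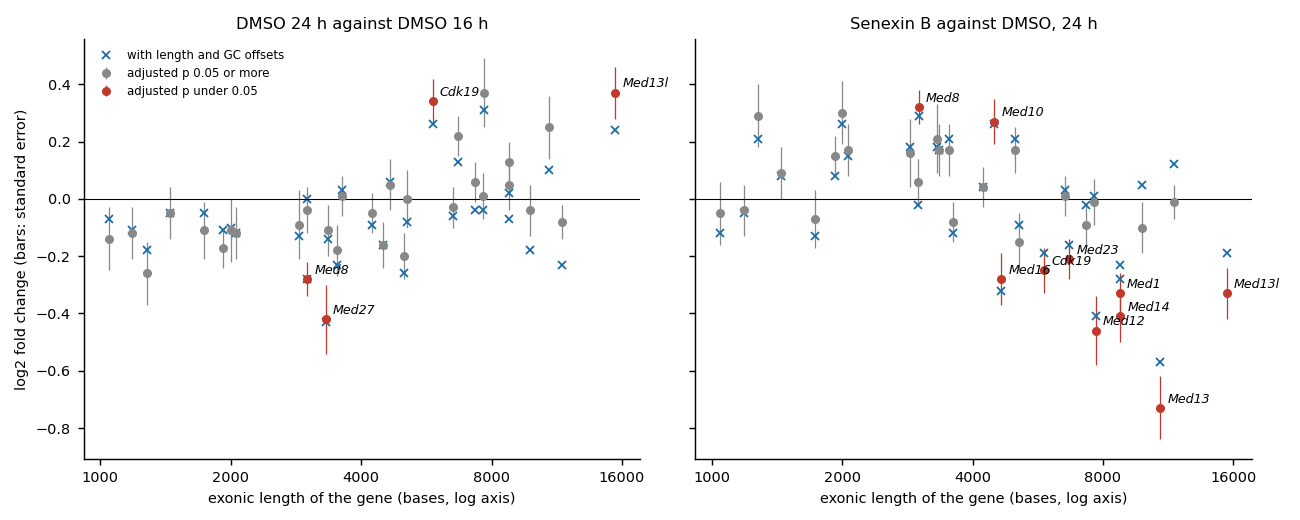
Log2 fold change of the 32 members against the exonic length of each gene (log axis), for DMSO at 24 h against 16 h (left) and Senexin B against DMSO at 24 h (right). Circles and bars give the value and standard error, red circles the members called, and crosses the value with length and GC offsets. On the right the called members that fell are all longer than 4230 bases.

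Other parts of the transcription machinery were counted for comparison. At 24 h of Senexin B, 6 of 12 RNA polymerase II subunits rose, with Polr2h and Polr2l each at 0.49, and Polr2a, the catalytic subunit, fell by 0.30. Between DMSO times, which share the 24 h DMSO libraries, Polr2l (-0.52), Polr2f (-0.33) and Polr2a (0.27) were called in the opposite direction. Of 12 genes of the other transcription kinases and their cyclins, 2 rose (Cdk11b by 0.30 and Cdk9 by 0.21) and 3 fell, among them Cdk12 by 0.43 and Ccnt2 by 0.29. Of 8 tested genes of the super elongation complex, 2 fell, Aff4 by 0.70 and Ell by 0.35. Over all genes 14.8% were called higher and 12.7% lower in this comparison, and nothing is read from the counts of these short lists. In double knockout against WT, Polr2e fell by 0.32. No gene of the kinase and super elongation lists was called by edgeR. At an unadjusted p under 0.05 there were 4 of each, beside 5005 of 15602 genes.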

How the data were processed

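RNA was measured as read counts in 24 libraries of mouse small intestinal organoids. The authors aligned single-end reads of 50 bases to GRCm38.p6 and counted them on Ensembl release 93 genes with STAR (version 2.6.0c in the submitters' processing notes), and deposited counts without normalisation. The labels of the Senexin B samples describe rRNA-depleted RNA, whereas the protocol describes oligo(dT) purification. The second-strand column was used. It counts about the same share of reads as the first strand in the genotype libraries, so genes that overlap on opposite strands share counts there.

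The test was edgeR's quasi-likelihood F test (version 4.0.16, R 4.3.3), fitted to each experiment's 12 libraries with TMM factors and genes kept by filterByExpr. Members were called at a Benjamini-Hochberg adjusted p under 0.05 over all genes that passed. SE is the log2 fold change divided by the square root of F. The fits were tested on simulated data. Alternatives were the Wald test of DESeq2 1.42.0, its size factors, a fit restricted to the groups compared, a minimum of 10 counts per library, no filter, the unstranded column, a replicate block and the removal of each library in turn. Length and GC offsets (splines with 5 degrees of freedom), these offsets with the block, and leaving out both libraries with Cdk19 at the WT level (Cdk19 itself not counted) were chosen after seeing the data. Positions and lengths came from GENCODE vM21 and promoters from RefSeq.

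The members and lists (modules, markers, polymerase, transcription kinases, super elongation) were chosen with earlier results of these data known. Values in every library are given for kinase module genes and for members called against their own control, and for the background lists the counts and up to 2 called changes in each direction. A further background list is not reported here. Values of Med22 and Med27 were added after their results were seen. For Senexin B against DMSO, deviations from the group mean correlated between same-numbered libraries at 0.101 to 0.303 at 16 h and 0.137 to 0.377 at 24 h. Between other-numbered libraries the correlations were -0.221 to 0.154 at 16 h and -0.26 to 0.147 at 24 h, which overlapped. The pairing is a hint from the data alone, since the labels do not say what a number shares. In no other comparison was the correlation of every same-numbered pair over 0.1, the limit used, although all 3 were above 0 for double knockout against Cdk19-/- (0.027 to 0.121). No pair of libraries was identical. By chi-square per gene, where lower is more alike, double knockout replicate 3 was at 14.43 from Cdk8-/- replicate 3 and at 35.85 and 22.38 from its own group. Double knockout replicate 2, with low Cdk19, was at 10.69 and at 24.21 and 22.38. Cdk19-/- replicate 1 was at 14.68 from WT replicate 1 and at 23.45 and 24.72 from its own group. What this means for the labels was not tested. Fibroblast, leukocyte, endothelial and mammary markers had at most 4 of 5, 2 of 4, 1 of 2 and 2 of 7 genes reaching 10 normalised counts. Python 3.11.15 and matplotlib 3.10.9 drew the figures.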

Additional observations from a re-analysis of the deposited data

How the results depend on the processing

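Under the alternatives, the log2 fold changes of called members kept their direction wherever computed. Over every member called and every alternative, the call was kept in 265 cases and lost in 64, of which 45 were with 1 library left out. The losses were 27 for Senexin B at 24 h, 19 for double knockout against Cdk19-/- and 18 between DMSO times. For the count of members called in Cdk8-/- (0), DESeq2 gave 1, beside 1294 genes, and the length and GC offsets 2, beside 998. Leaving out both libraries with Cdk19 at the WT level gave 1, beside 1309 genes, and 1 in Cdk19-/-, beside 666. Double knockout against WT (3) gave 4 in the fit of the groups compared (with Med13, beside 2787 genes) and in the unstranded column (with Med26, beside 2907). It also gave 4 without double knockout replicate 3 (with Cdk19, beside 2452). Double knockout against Cdk19-/- (5) gave 7 with the offsets, beside 4457 of 15591 genes, and 7 in the unstranded column, beside 4252. It gave 3 without a filter, beside 4109 genes, and 2 with only the groups compared, beside 2867. With 1 library left out it gave 2 to 7, beside 2399 to 4318 genes. Senexin B at 16 h (0) gave 2 with the offsets, beside 1790 of 15460 genes, and 2 with the replicate block, beside 2293 of 15467. With both it gave 4, beside 2731 of 15460 genes, and with 1 library left out 0 to 2, beside 657 to 1819. At 24 h (10) the replicate block gave 12, beside 5712 genes, and no filter 8 (without Cdk19 and Med23), beside 4276. Only the groups compared gave 9 (without Cdk19), beside 4605 genes, and 1 library left out 4 to 10, beside 2656 to 3805. DMSO at 24 h against 16 h (4) gave 0 with only the groups compared, beside 385 genes, and 9 with block and offsets, beside 3496 of 15460. With 1 library left out it gave 0 to 6, beside 434 to 2296 genes. The median over the members moved by more than the spread between libraries in 36 cases, within -0.14 to -0.06 for double knockout against Cdk19-/-, -0.10 to -0.04 against Cdk8-/-, -0.07 to -0.02 at 16 h of Senexin B and -0.04 to 0.02 at 24 h. The cause of these shifts was not tested.

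Uncalled kinase module genes changed sign in 13 cases: Ccnc in Cdk8-/- at 0.03 with the offsets and 0.03 in the unstranded column; Med13 in Cdk8-/- and Cdk19-/- at -0.06 and -0.08 without 1 library (and at most 0.16 and 0.18); at 16 h of Senexin B, Cdk8 at -0.04 to 0.15 and Med12 at -0.19 to 0.04 without 1 library, and Med13l at 0.00 to 0.01 with the stricter filter, DESeq2 size factors, DESeq2 and the unstranded column and at -0.08 to 0.10 without 1 library; and Cdk8 at 24 h at 0.05 with the offsets, with or without the block. The replicate block gave 3 members in double knockout and 5 against Cdk19-/-, and elsewhere in the genotype experiment 0, where paired numbers were not seen. The unstranded column holds no test of Med10, which did not pass the filter there.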
